A study of Homo sapiens with 6 samples.

Results

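The genes described here encode the proteasome, its activators, its inhibitor and the factors that assemble it. They were taken from the deposited expression table by symbol, as every row that starts with PSMA, PSMB, PSMC, PSMD, PSME, PSMF or PSMG except PSMB8 and PSMB9, and the rule gave 46 of 23524 rows. The study compared Hep G2 cells, a human liver tumor cell line, that stably carried either an empty lentiviral vector (control, 3 libraries) or a lentivirus expressing EFTUD2 (3 libraries). EFTUD2 is a GTPase of the U5 particle of the spliceosome. All cells were thus infected with lentivirus. The methods state puromycin selection for cells given the EFTUD2 vector, and the labels do not say whether a line is a pool or a clone. Nothing in the labels says that the 3 libraries of a group came from separate cultures, so the p-values below measure only the spread between these libraries, which may be technical. The authors deposited the values as FPKM, that is, fragments scaled to transcript length and library size, so levels of different genes can be set side by side, but read depth is unknown.

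The 26S proteasome is the protease that degrades proteins marked with ubiquitin. Its 20S core is a barrel of rings of alpha subunits, which gate the entrance, and rings of beta subunits, of which PSMB5, PSMB6 and PSMB7 carry the catalytic threonines. The 19S particle caps the core. Its base holds a ring of ATPases that unfold the substrate, and its lid removes the ubiquitin chain. Proteasome genes are known to be induced together by the transcription factor NRF1 (NFE2L1), which binds the antioxidant response element in their promoters, and in liver as in other tissues interferon exchanges the catalytic subunits for PSMB8, PSMB9 and PSMB10.

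EFTUD2 itself stood at 41.1, 54.4 and 46.3 FPKM for control replicates 1 to 3, while each EFTUD2 library lay above these, at 106.6, 103 and 109.5 FPKM, a ratio of 2.25 between the group means. All 10 hepatocyte markers, such as albumin, had a mean of at least 1 FPKM in each group. EFTUD2 replicate 3 stood apart from the other libraries: its log2 values differed from those of EFTUD2 replicates 1 and 2 with an SD of 0.51 and 0.60 over genes, while those 2 differed from each other with an SD of 0.23 and the controls with 0.21 to 0.36. The main counts and medians, and the values of many but not all genes that moved with it, are therefore also given without it. Of markers of other cells, 5 of 6 genes of a list drawn up for basal or squamous epithelium were higher in each EFTUD2 library than in each control. The list held KRT5, KRT14, KRT17 and TP63 and also VIM and LDHB, which mark other cells too. It gave sums of 1.30 to 1.99 FPKM in the controls and of 115.4, 248.8 and 14.9 FPKM in EFTUD2 replicates 1 to 3, of which KRT17 made up 66.9, 135.1 and 9.29 FPKM and VIM 23.2, 59.6 and 2.87 FPKM, and KRT5 was listed at 0 throughout. Fibroblast genes summed to 0.51 to 1.58 FPKM in the controls and to 2.87, 4.82 and 2.33 FPKM in EFTUD2 replicates 1 to 3. Endothelial genes summed to at most 1.75 FPKM and T cell genes to at most 2.21 FPKM in any library. Of the 6 endothelial genes, 2 were higher and 1 lower without overlap, against 7.92% and 19.4% of all rows tested. The macrophage list summed to 775 to 2279 FPKM in the controls and 885 to 1748 FPKM in the EFTUD2 libraries, nearly all of it from LYZ and with TYROBP at 0.

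Of the 46 genes, 45 had a mean of at least 0.1 FPKM and could be tested. The remaining gene, PSMB11, the catalytic subunit of the thymus, was listed at 0.01 FPKM in each control and at 0, 0 and 0.03 FPKM for EFTUD2 replicates 1 to 3. The 45 included PSMC3IP, which shares the symbol but encodes a recombination factor and no part of the proteasome. No proteasome gene passed the threshold of an adjusted p under 0.05 from limma over the 17222 rows tested. The same held for all rows (0% called), of which 2118 had an unadjusted p under 0.05. The log2 fold change was below 0 for 41 of the 45 genes, against 62.7% of all rows, and its median was -0.27 against -0.07 for all rows. At an unadjusted p under 0.05, 4 genes were lower (PSMB5, PSMD9, PSMG4 and PSMD7) and 0 higher. That is 8.89% of the 45 and close to the 7.9% of all rows called lower at this limit (4.4% were called higher). The groups did not overlap, with the EFTUD2 libraries lower, for 16 genes, or 35.6%, against 19.4% of all rows. They did not overlap in the other direction for PSME1 and PSMG2, or 4.44%, against 7.92% of all rows. Proteasome genes are well expressed, with means of 6.75 to 344 FPKM. Among the 8827 rows with a mean of at least 5 FPKM, a limit chosen after the data were seen, 70.9% had a log2 fold change below 0 and 25.6% did not overlap with the EFTUD2 libraries lower; 10.3% were lower and 2.91% higher at an unadjusted p under 0.05, and 6.09% did not overlap with the EFTUD2 libraries higher. The 35.6% of the proteasome genes thus lay above both shares, and nearer to that of the rows at or above 5 FPKM. The median log2 fold change of the rows at or above 5 FPKM was -0.14, between those of all rows and of the proteasome genes. This limit is only a lower bound and does not match the rows to the proteasome genes by level.

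**Figure D1:**
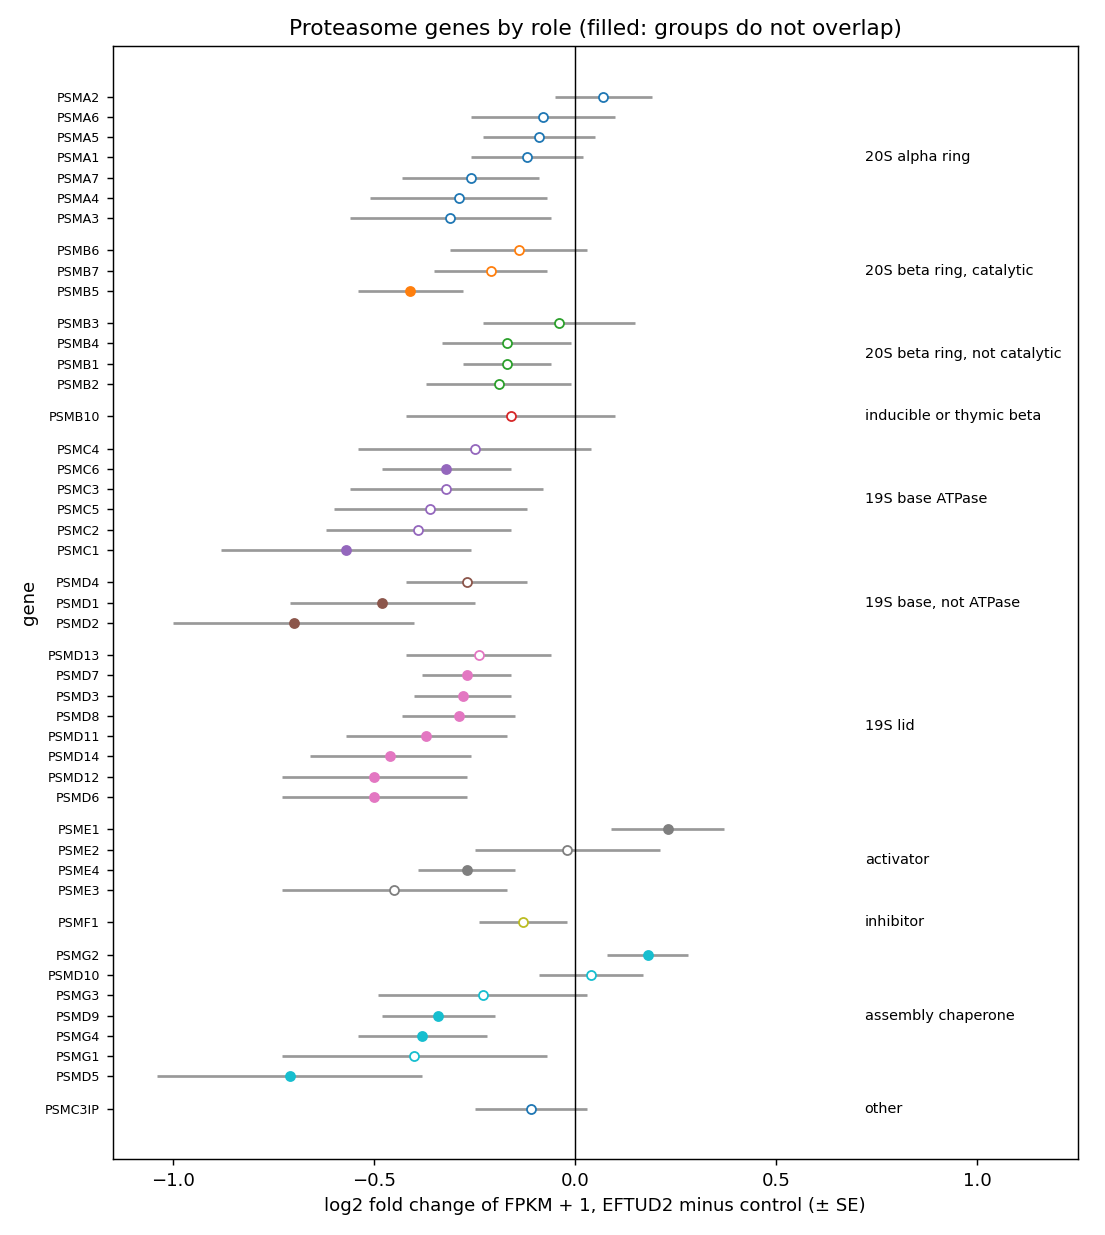
Log2 fold change of FPKM + 1 (x axis, EFTUD2 minus control, bars ± SE from limma, n = 3 libraries per group) for the 45 tested genes, grouped by role. Filled points mark the 18 genes whose groups did not overlap; all 17 genes of the 19S particle lie left of 0, the lowest values are those of PSMD5 (-0.71) and PSMD2 (-0.70), and PSME1 lies highest at 0.23.

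The differences were largest in EFTUD2 replicate 3, which was the lowest of the 6 libraries for 41 of the 45 genes. Relative to the control mean of log2(FPKM + 1), the median over the 45 genes was -0.14 in EFTUD2 replicate 1, -0.04 in replicate 2 and -0.58 in replicate 3. Over all rows tested the corresponding medians were -0.05, -0.04 and -0.15. Over the rows with a mean of at least 5 FPKM they were -0.08, -0.06 and -0.27. Without replicate 3, the median log2 fold change of the 45 genes was -0.09, with 32 below 0 (71.1%, against 59.5% of all rows). Groups that do not overlap cannot come to overlap when a library is left out, so the 16 genes were bound to remain, and none was added (35.6%, against 25.2% of all rows), while 3 genes were higher without overlap (6.67%, against 14.7%). At an unadjusted p under 0.05, 4 were lower and 0 higher, against 8.87% and 7.82% of all rows. These 4 were PSMB5, PSMD5, PSMD2 and PSME4, of which only PSMB5 was also called with all 6 libraries. None passed the adjusted p, which 0.761% of all rows did. The libraries were also rescaled by the median of their ratios over genes, which lowers the weight of a shift shared by all genes and moved the median of all rows to 0.02. The median of the proteasome genes was then -0.13, 34 were below 0 (75.6%, against 46.8% of all rows), and 10 of the 16 still did not overlap (22.2% of the 45, against 10.9% of all rows). In the other direction 4 did not overlap (8.89%, against 13.5%), and at an unadjusted p under 0.05, 1 was lower and 2 higher, against 4.27% and 7.12% of all rows. When this rescaling was combined with leaving out replicate 3, which was decided on once the data had been seen, the median was -0.02, and 24 of 45 were below 0 (53.3%, against 49% of all rows). Of the 45, 11 did not overlap with the EFTUD2 libraries lower and 5 with them higher (24.4% and 11.1%, against 16.9% and 20.9% of all rows). There 2 were lower and 2 higher at an unadjusted p under 0.05, against 5.06% and 10.1% of all rows, and none passed the adjusted p, which 0.952% of all rows did.

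The controls varied in the same genes. Control replicate 1 was the lowest control for 36 of the 45 genes, and control replicate 2 was the highest library for 34. Summed over the 45 genes, the level was 3404, 4139 and 3770 FPKM in control replicates 1 to 3 and 3522, 3716 and 2610 FPKM in EFTUD2 replicates 1 to 3, so EFTUD2 replicates 1 and 2 lay within the range of the controls and replicate 3 below it. The sums of the 10 hepatocyte markers were 12440, 7721 and 10480 FPKM in the controls and 10810, 10570 and 16560 FPKM in the EFTUD2 libraries. The order of the 6 libraries by the summed hepatocyte markers was the reverse of their order by the summed proteasome genes. Not every marker had the order of the sum. HNF4A was highest in control replicate 2 (79.9 FPKM) and lowest in EFTUD2 replicate 3 (47.3 FPKM), as the proteasome sum was. FGB was highest in EFTUD2 replicate 2 (118 FPKM). Whether the marker level had a part in the proteasome values was not tested, and in bulk RNA fewer cells of a kind cannot be told apart from less RNA per cell.

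**Figure D2:**
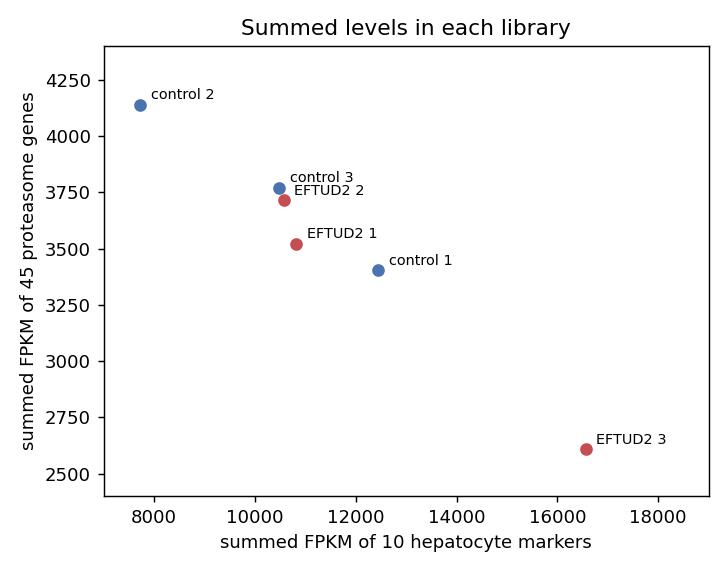
Summed FPKM of 45 proteasome genes (y axis) against the summed FPKM of 10 hepatocyte markers (x axis) in each of the 6 libraries, controls in blue and EFTUD2 in red; neither axis starts at 0. Control replicate 2 lies highest on the y axis (4139 FPKM) and lowest on the x axis (7721 FPKM), and EFTUD2 replicate 3 lies at the other end (2610 and 16560 FPKM).

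The particle that showed the lower values most often was 19S. The symbol rule took 17 of its genes, without ADRM1 and SEM1, which are described below. All 17 had a log2 fold change below 0, with a median of -0.36 and a range of -0.70 to -0.24. Of the 17, 11 did not overlap, against 19.4% of all rows. Without EFTUD2 replicate 3 the median was -0.16 with 16 below 0, against 59.5% of all rows. After rescaling by the median of ratios it was -0.22, with 17 below 0 and 7 without overlap, against 46.8% and 10.9% of all rows. With both it was -0.09 with 14 below 0, against 49% of all rows. In the 20S core, 13 of 14 genes were below 0, with a median of -0.17, and only PSMB5 did not overlap. Its median was -0.02 without EFTUD2 replicate 3, -0.02 after rescaling and 0.05 with both. A ratio within a library does not depend on how libraries are scaled. The summed FPKM of the 17 genes of 19S, divided by that of the 14 constitutive genes of 20S, was 0.54, 0.50 and 0.495 in control replicates 1 to 3. It was 0.467, 0.472 and 0.397 in EFTUD2 replicates 1 to 3, so each EFTUD2 library lay below each control. EFTUD2 replicates 1 and 2 lay close under the lowest control, and without replicate 3 the difference of the means was -0.042 instead of -0.066. This ratio was chosen after the values were seen, leaves out ADRM1 and SEM1, and was given no test.

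**Figure D3:**
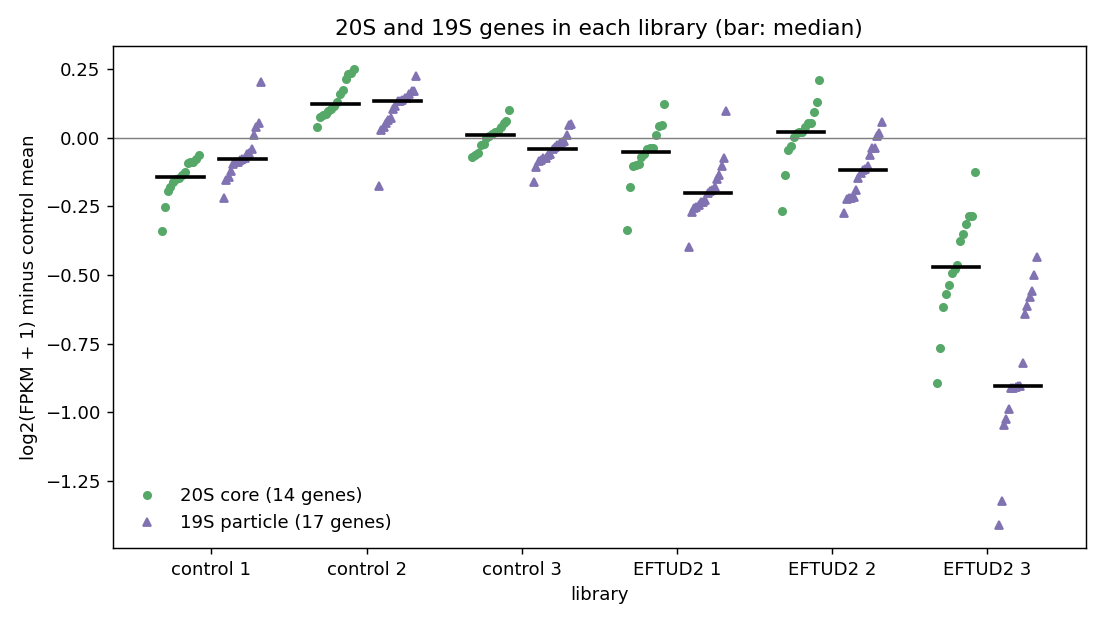
Log2(FPKM + 1) of each gene minus its control mean (y axis) in each library (x axis), for 14 genes of the 20S core (green circles) and 17 genes of the 19S particle (purple triangles); black bars are medians. In EFTUD2 replicate 3 the medians are -0.47 for 20S and -0.91 for 19S, and in replicates 1 and 2 they are -0.05 and 0.02 for 20S and -0.20 and -0.12 for 19S.

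Among the proteins of the 19S base that are not ATPases, PSMD2 (RPN1) and PSMD1 (RPN2) are the scaffolds on which ubiquitin receptors and shuttle factors dock, and PSMD4 (RPN10) is itself a ubiquitin receptor. PSMD2 (Entrez gene 5708, chromosome 3 from 184298709 to 184309054 on GRCh38) was at 97.2, 127.8 and 117 FPKM over control replicates 1 to 3, compared with 85.7, 93.4 and 41.9 FPKM over those of EFTUD2. Each EFTUD2 library lay below each control, but replicate 2 only just (log2 fold change -0.70, standard error 0.30; limma, adjusted p = 0.40). With EFTUD2 replicate 3 left out its log2 fold change was -0.34. PSMD1 had 48.3, 62.6 and 50.4 FPKM for the controls and 44.9, 45.9 and 26.4 FPKM for the EFTUD2 libraries (log2 fold change -0.48, adjusted p = 0.41 from limma; -0.23 without EFTUD2 replicate 3). The groups of PSMD4 overlapped, at 80.6 ± 4.34 and 67.1 ± 11.6 FPKM (SD, n = 3 each).

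The 6 ATPases of the base, PSMC1 to PSMC6, had log2 fold changes of -0.57 to -0.25, and PSMC1 and PSMC6 did not overlap, though after rescaling by the median of ratios both did. Without EFTUD2 replicate 3 the median of the 6 was -0.11. PSMC1 (RPT2), whose tail helps to open the gate of the core, had 67.4, 78.7 and 67.5 FPKM for the controls and 58.7, 65.4 and 27.8 FPKM for the EFTUD2 libraries (log2 fold change -0.57, standard error 0.31; limma, adjusted p = 0.44). Most of this difference came from replicate 3, without which it was -0.19. PSMC1 also has 13 named pseudogenes in GENCODE, the most of any of these genes, and how the authors' counting shared reads among such copies is not given in the sources used here. PSMC2 (RPT1) had 31, 36.6 and 32.3 FPKM for the controls and 28.3, 32.3 and 17.2 FPKM for the EFTUD2 libraries, where replicate 2 lay among the controls. The ring contains its ATPases in equal number, and the mean FPKM over the 6 libraries was 29.6 to 74.1 for PSMC1, PSMC2, PSMC3, PSMC5 and PSMC6. The highest, PSMC5 (RPT6), had 73.7, 92.5 and 81 FPKM for the controls and 74.5, 80 and 43.1 FPKM for the EFTUD2 libraries, with overlap. PSMC4 was the exception, with 8.44, 6.26 and 7.07 FPKM for the controls and 7.78, 7.55 and 3.38 FPKM for the EFTUD2 libraries, the lowest level of any tested proteasome gene. Without EFTUD2 replicate 3 the log2 fold changes of PSMC3, PSMC4 and PSMC5 were -0.03, 0.08 and -0.09 instead of -0.32, -0.25 and -0.36.

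All 8 lid genes that the symbol rule took had a log2 fold change below 0. They were below 0 also without EFTUD2 replicate 3, as genes without overlap were bound to be, and also after rescaling by the median of ratios. In 7 of the 8 each EFTUD2 library lay below each control, PSMD13 being the exception, and after rescaling this held for 5. Of all rows, 19.4% lay so, and 10.9% after rescaling. PSMD14 (RPN11; Entrez gene 10213, chromosome 2 from 161308038 to 161411717), the metalloprotease that cuts the ubiquitin chain off the substrate, was at 60.6, 72.2 and 61.2 FPKM in the controls. In the EFTUD2 libraries it was at 54, 55.3 and 33.9 FPKM (log2 fold change -0.46, standard error 0.20; limma, adjusted p = 0.40), and its log2 fold change was -0.23 when replicate 3 was left out. The scaffold subunit PSMD12 (RPN5) had 23.8, 24.7 and 20.4 FPKM for the controls and 19, 19.5 and 10.7 FPKM for the EFTUD2 libraries. PSMD6 (RPN7) had 38.4, 44.3 and 37.6 FPKM for the controls and 33.9, 34.2 and 18.8 FPKM for the EFTUD2 libraries, and PSMD6 overlaps 2 antisense genes of the annotation, whose reads cannot be told apart without strand. PSMD11 (RPN6) had 34.9, 41.9 and 37.7 FPKM for the controls and 34.1, 34.3 and 21.1 FPKM for the EFTUD2 libraries. In these 3 genes EFTUD2 replicates 1 and 2 lay just below the controls and replicate 3 far below, and with replicate 3 left out the log2 fold changes were -0.24 for PSMD12, -0.23 for PSMD6 and -0.15 for PSMD11 instead of -0.50, -0.50 and -0.37. PSMD7 (RPN8), the partner of PSMD14, had the highest level of the 8 lid genes and a smaller gap. It had 96, 97.8 and 86.7 FPKM for the controls and 81.8, 81.7 and 68.8 FPKM for the EFTUD2 libraries (log2 fold change -0.27, adjusted p = 0.40 from limma). The values of PSMD3 (90.2 ± 2.24 and 74.4 ± 10.1 FPKM) and PSMD8 (75.3 ± 3.42 and 61.8 ± 10.5 FPKM) were similar to it (SD, n = 3 each).

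The catalytic beta subunits did not share a pattern. PSMB5 (Entrez gene 5693, chromosome 14 from 23016543 to 23035230), which provides the chymotrypsin-like activity and is the target of bortezomib, was at 289, 324 and 310.2 FPKM in control replicates 1 to 3. In EFTUD2 replicates 1 to 3 it was at 243, 255 and 200.03 FPKM, so all 3 lay clearly below all controls. Its log2 fold change was -0.41 (standard error 0.13; limma, adjusted p = 0.40, unadjusted p = 0.018), the smallest p of the 45 genes, and the exact two-sided permutation p was 0.1, the smallest that 3 against 3 libraries can give. Without EFTUD2 replicate 3 its value was -0.30, and it was -0.26 after rescaling by the median of ratios. PSMB6, the caspase-like subunit, had 91.2, 105.5 and 102 FPKM for the controls and 97, 106.2 and 70.4 FPKM for the EFTUD2 libraries. PSMB7, the trypsin-like subunit, had 124.7, 140.6 and 129.5 FPKM for the controls and 122.8, 127.4 and 94 FPKM for the EFTUD2 libraries. For PSMB6 and PSMB7 the groups overlapped, and EFTUD2 replicate 3 alone was low.

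The ratio of PSMB5 to PSMB6 was 3.17, 3.07 and 3.03 in the controls and 2.51, 2.40 and 2.84 in the EFTUD2 libraries (exact permutation test, two-sided p = 0.1, 3 libraries against 3). That of PSMB5 to PSMB7 was 2.32, 2.30 and 2.40 in the controls and 1.98, 2 and 2.13 in the EFTUD2 libraries (exact permutation test, two-sided p = 0.1). Neither ratio overlapped between the groups, while that of PSMB7 to PSMB6 did, at 1.32 ± 0.051 and 1.27 ± 0.068 (SD, n = 3 each; exact permutation test, two-sided p = 0.4). These 3 ratios, like the shares of PSMB8 and PSMB9 given below, were chosen after the values were seen. PSMB5 lay lower relative to the other catalytic subunits also in EFTUD2 replicate 3. Leaving out 1 library at a time kept the difference in the ratio of PSMB5 to PSMB6 between -0.633 and -0.414. As the groups did not overlap, the sign of this difference could not have turned.

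**Figure D4:**
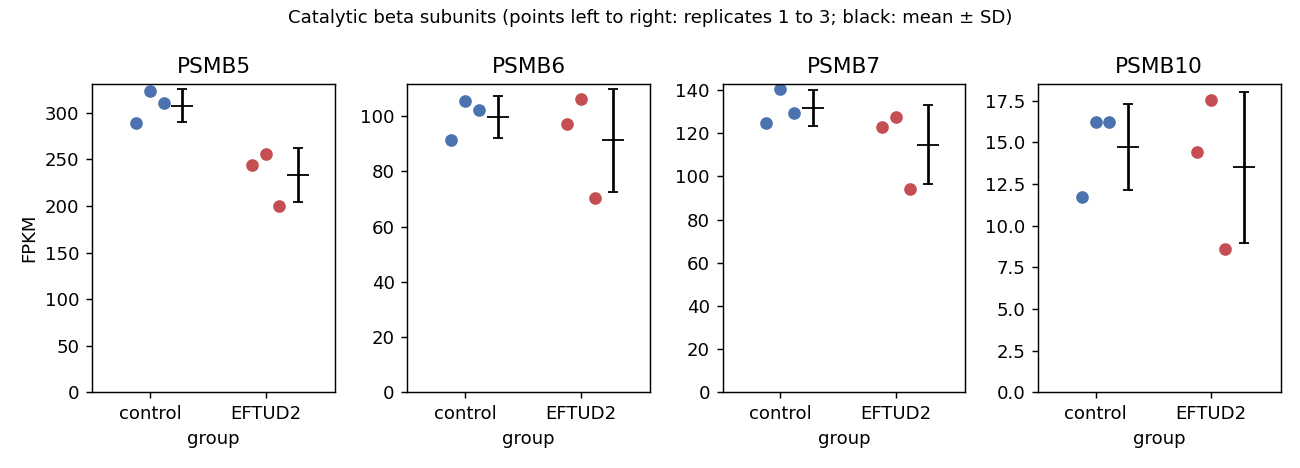
FPKM (y axis, from 0) of the catalytic subunits PSMB5, PSMB6, PSMB7 and PSMB10 in 3 control (blue) and 3 EFTUD2 (red) libraries, with the mean ± SD in black. For PSMB5 all EFTUD2 points (200.03 to 255 FPKM) lie below all control points (289 to 324 FPKM), and for the other 3 genes the groups overlap.

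PSMB10, which replaces PSMB7 in the immunoproteasome, had 11.7, 16.2 and 16.2 FPKM for the controls and 14.4, 17.5 and 8.57 FPKM for the EFTUD2 libraries. Its share of the sum of PSMB7 and PSMB10 was 10% ± 1.3 in the controls and 10.3% ± 1.9 in the EFTUD2 libraries (SD, n = 3 each; exact permutation test, two-sided p = 0.9). In each library most of the summed mRNA was thus PSMB7, and the protein was not measured. The other immunosubunits, left out of the gene set by its rule, gave a share of PSMB8 in the sum of PSMB5 and PSMB8 of 7.45% ± 0.45 and 8.95% ± 1.4 (SD, n = 3 each), with overlapping groups. The share of PSMB9 in the sum of PSMB6 and PSMB9 was 5.41%, 6.32% and 7.13% in the controls and 7.94%, 8.30% and 9.52% in the EFTUD2 libraries, without overlap (p = 0.1, two-sided exact permutation test). PSMB9 itself did overlap, at 5.22, 7.12 and 7.85 FPKM in the controls and 8.37, 9.61 and 7.41 FPKM in the EFTUD2 libraries. In EFTUD2 replicate 3 the share was highest although PSMB9 lay within the range of the controls, as PSMB6 was low there.

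The 4 beta subunits without catalytic activity, PSMB1 to PSMB4, had log2 fold changes of -0.19 to -0.04, and their groups overlapped. The highest of them, PSMB3, had 130.1, 194.5 and 177 FPKM for the controls and 170.1, 180.4 and 135 FPKM for the EFTUD2 libraries, and it was lowest in control replicate 1. The lowest, PSMB2, had 28.1, 35.5 and 33.8 FPKM for the controls and 31.4, 32.8 and 22 FPKM for the EFTUD2 libraries. The 7 alpha subunits, PSMA1 to PSMA7, had log2 fold changes of -0.31 to 0.07, and none was free of overlap. The lowest were those of PSMA3 (-0.31), PSMA4 (-0.29) and PSMA7 (-0.26), which were -0.02, -0.05 and -0.10 without EFTUD2 replicate 3. PSMA6 had the highest level of all 45 genes, with 294.5, 418 and 350.3 FPKM for the controls and 362, 364 and 275 FPKM for the EFTUD2 libraries, with 4 named pseudogenes. PSMA7 followed among the alpha subunits, at 272 ± 23.6 and 229 ± 42.7 FPKM (SD, n = 3 each). PSMA5 was the lowest alpha subunit, with 20.5, 25.9 and 22.4 FPKM for the controls and 23, 23.1 and 18.5 FPKM for the EFTUD2 libraries. PSMA2 was the only core gene with a value above 0, at 59.9 ± 3.77 and 63.1 ± 7.55 FPKM (SD, n = 3 each), and it has 3 named pseudogenes.

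The 4 activators differed among themselves. PSME1 and PSME2 form PA28, the interferon-inducible cap that favors the release of antigenic peptides, and lie close together on chromosome 14 (from 24136158 to 24138967 and from 24143362 to 24147570). PSME1 had 155.8, 199.2 and 207.9 FPKM for the controls and 217.7, 223 and 213 FPKM for the EFTUD2 libraries. All EFTUD2 libraries lay above all controls, by little over control replicate 3, and replicate 3 of EFTUD2 did not stand apart (log2 fold change 0.23, standard error 0.14; limma, adjusted p = 0.46). Its partner PSME2 had 160.7, 234 and 208 FPKM for the controls and 221, 236 and 142.9 FPKM for the EFTUD2 libraries, so the groups overlapped. PSME3, the nuclear activator PA28-gamma, had 65.4, 84.1 and 68.9 FPKM for the controls and 65.8, 68 and 32.9 FPKM for the EFTUD2 libraries, where only replicate 3 was low (log2 fold change -0.45, and -0.11 without it). The ratio of PSME1 to PSME3 was 2.38, 2.37 and 3.02 in the controls and 3.31, 3.29 and 6.49 in the EFTUD2 libraries (exact permutation test, two-sided p = 0.1, chosen after the values were seen). That of PSME1 to its partner PSME2 overlapped between the groups. It was 0.97, 0.853 and 0.997 in the controls and 0.984, 0.946 and 1.49 in the EFTUD2 libraries (exact permutation test, two-sided p = 0.5). PSME4 (PA200), the activator of acetylated histone degradation, had 41.9, 36.2 and 33.3 FPKM for the controls and 31.4, 28.4 and 31.9 FPKM for the EFTUD2 libraries. It was the only gene of the 16 for which replicate 2, not 3, was the lowest EFTUD2 library (log2 fold change -0.27, adjusted p = 0.40 from limma), and after rescaling its groups overlapped. The inhibitor PSMF1 (PI31) was at 29.2 ± 2.24 and 26.5 ± 1.5 FPKM (SD, n = 3 each), with overlap.

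**Figure D5:**
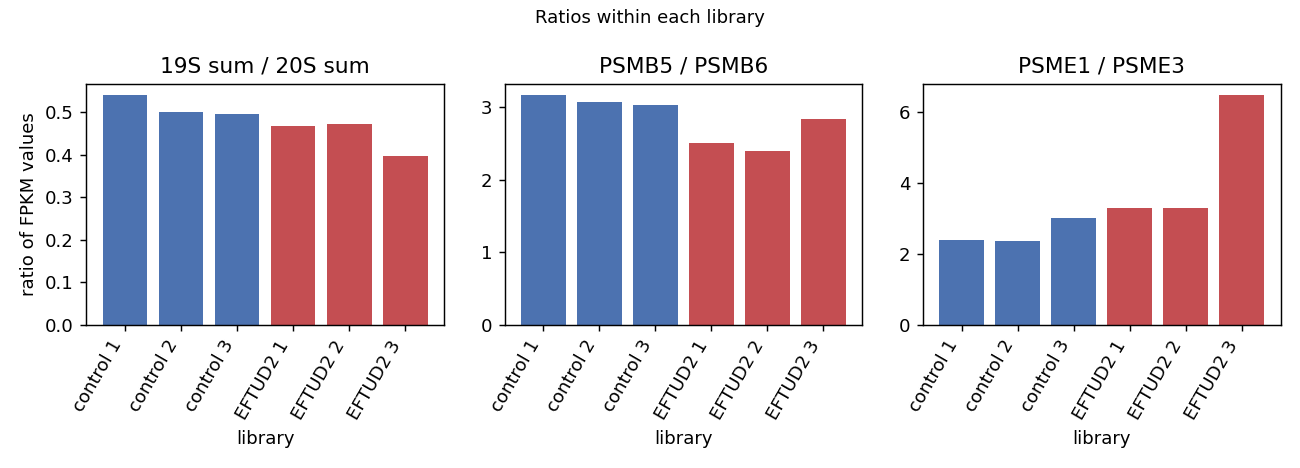
Ratios of FPKM values within each library (bars from 0; controls blue, EFTUD2 red): the 17 genes of 19S to the 14 of 20S, PSMB5 to PSMB6, and PSME1 to PSME3. The first 2 ratios are lower in each EFTUD2 library than in each control, and the last is higher, with 6.49 in EFTUD2 replicate 3 against at most 3.02 in the controls.

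PSMD5, PSMD9 and PSMD10 escort the ATPases into the base, and PSMG1 to PSMG4 build the alpha ring. PSMD5 (S5b; Entrez gene 5711, chromosome 9 from 120815496 to 120842984) had 14.1, 14.2 and 13 FPKM for the controls and 10.4, 11.7 and 4.14 FPKM for the EFTUD2 libraries. It had the largest difference of the 45 genes, with all EFTUD2 libraries below all controls (log2 fold change -0.71, standard error 0.33; limma, adjusted p = 0.41). Without replicate 3 it was at -0.30, and PSMD2 at -0.34 then lay furthest from 0. PSMD9 had 14.6, 14.8 and 13.2 FPKM for the controls and 11.5, 12.5 and 9.33 FPKM for the EFTUD2 libraries. PSMG4 had 22.7, 28 and 23 FPKM for the controls and 18.3, 22.2 and 15.7 FPKM for the EFTUD2 libraries. PSMD9 and PSMG4 did not overlap, of which PSMG4 did after rescaling by the median of ratios, whereas PSMG1 (32.9, 49 and 39.4 against 36.1, 42.7 and 17.4 FPKM) and PSMG3 (21.5 ± 2.42 against 19 ± 6.82 FPKM, SD, n = 3 each) did. The log2 fold change of PSMG1 was -0.40 with all libraries and -0.02 without EFTUD2 replicate 3. Against this direction, PSMG2, the partner of PSMG1, had 30.5, 35.3 and 34.8 FPKM for the controls and 36.8, 38.6 and 39.2 FPKM for the EFTUD2 libraries. All EFTUD2 libraries lay above all controls, and replicate 3 was the highest (log2 fold change 0.18, standard error 0.10; limma, adjusted p = 0.44). PSMD10, also known as the liver oncoprotein gankyrin, differed by less than the spread between libraries (21.8 ± 2.03 and 22.4 ± 2.95 FPKM, SD, n = 3 each).

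Genes that act with the proteasome under other symbols were read from a list of 33. None had an adjusted p under 0.05, 2 were lower at an unadjusted p under 0.05 and 0 higher, 28 had a log2 fold change below 0, and the median was -0.19 (over all rows 7.9% were lower and 4.4% higher at that limit, 62.7% were below 0 and the median was -0.07). Of the 33, 7 did not overlap with the EFTUD2 libraries lower and 1 with them higher, against 19.4% and 7.92% of all rows. The median of the list was -0.10 without EFTUD2 replicate 3. After rescaling by the median of ratios it was -0.05, with 21 below 0, against 46.8% of all rows. The ubiquitin receptor ADRM1 (RPN13) of the 19S base had 126.6, 143.6 and 134.8 FPKM for the controls and 111.01, 124.3 and 67.7 FPKM for the EFTUD2 libraries, without overlap. The lid subunit SEM1 (106.7 ± 6.41 and 93.4 ± 7.24 FPKM, SD, n = 3 each) did not overlap either, while POMP, which assembles the beta ring, did (50.3 ± 7.01 and 41.8 ± 12.3 FPKM, SD, n = 3 each). After rescaling by the median of ratios the groups of ADRM1 and SEM1 overlapped too. Without EFTUD2 replicate 3 the log2 fold change of ADRM1 was -0.20 instead of -0.46. The gene of the list with the smallest p was UBE3A, a ubiquitin ligase that binds the proteasome, with 23.2, 21.5 and 19.6 FPKM for the controls and 17.3, 16.25 and 13.7 FPKM for the EFTUD2 libraries (log2 fold change -0.42, adjusted p = 0.40 from limma). PITHD1, RAD23B and UBA6 followed, with log2 fold changes of -0.36, -0.23 and -0.24. The mRNA of NRF1 (NFE2L1), the known activator of these genes, had 53.2, 50.7 and 58.7 FPKM for the controls and 55, 56.7 and 68.8 FPKM for the EFTUD2 libraries, with overlapping groups.

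The promoters of these genes were searched for the core of the antioxidant response element, TGACNNNGC on either strand, from 250 bases before to 50 bases after each start in RefSeq (GRCh38.p14). Of the 46 genes, 40 matched the promoter table, and 14 of them held the motif, or 35%. The motif was held by 16.1% of all genes with a promoter entry, and by 20.1% of the 7119 matched genes at or above 5 FPKM on average. Of the 14 genes with the motif 6 did not overlap with the EFTUD2 libraries lower, and of the 25 tested genes without it 10. The median log2 fold change was -0.29 in each of these sets. A box of CCAAT on either strand was held by 20 of the 40 genes (50%), by 39.7% of all genes and by 43.6% of the expressed ones. A match is a description of these letters and not evidence of binding.

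The stretches with the motif are shown for the genes whose groups did not overlap and whose match lies before the start of the gene, so that the genes with lower values (PSMD5, PSMD12, PSMD9, PSMD3 and PSME4) can be set beside one with higher values (PSME1); PSMG2, also higher, held the motif too and is not shown. Each is read 5′ to 3′ on the strand of its gene, with the motif in capitals. In the first stretch of PSMD9 and in PSME4 the match is on the opposite strand, so that the capitals are its reverse complement.
PSMD5, chr9:120843032-120843072, minus strand: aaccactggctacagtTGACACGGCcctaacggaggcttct
PSMD12, chr17:67366718-67366758, minus strand: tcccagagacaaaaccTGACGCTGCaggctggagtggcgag
PSMD9, chr12:121888625-121888665, plus strand: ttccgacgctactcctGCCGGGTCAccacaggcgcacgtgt
PSMD9, chr12:121888672-121888712, plus strand: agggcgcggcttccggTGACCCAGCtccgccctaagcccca
PSMD3, chr17:39980754-39980794, plus strand: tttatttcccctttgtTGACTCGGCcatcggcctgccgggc
PSME4, chr2:53971003-53971043, minus strand: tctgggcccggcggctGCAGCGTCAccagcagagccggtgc
PSME1, chr14:24136092-24136132, plus strand: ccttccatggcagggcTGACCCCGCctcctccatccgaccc
The motif was thus held by genes on each side of 0, and PSMD5 and PSME1, the lowest and the highest of the 45 by log2 fold change, both held it. PSMB5 and PSMD14 had no match in this window, and their promoters held CCAAT.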

How the data were processed

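From total RNA of Hep G2 cells the authors enriched poly-A RNA, sequenced it with a BGISEQ-500 instrument and deposited 1 table of FPKM values per gene and library, rounded to 2 decimals. The submitters' processing notes name HISAT2, Bowtie2, RSEM, DESeq2 and the build hg38, without versions or roles. No counts were used, so depth is unknown and no interval from read numbers is given. The 6 libraries were grouped by their titles, and the 17222 rows with a mean of at least 0.1 FPKM were compared as log2(FPKM + 1) with limma 3.58.1 (lmFit, eBayes with trend, all 6 libraries, no covariate) in R 4.3.3, with Benjamini-Hochberg adjustment over all rows at 0.05; the model was tested on simulated data. This scale understates changes of low genes. For single ratios a permutation test was used, exact and two-sided. The genes, lists and roles were chosen with earlier results of these data known. Values in each library are given for PSMB5, PSMB6, PSMB7 and PSMB10, the 12 largest log2 fold changes, other genes chosen after their values were seen, and the highest and lowest gene of each role. Of the other list, POMP, ADRM1, SEM1, NFE2L1 and the 5 smallest p were named. Gene positions and pseudogenes are from GENCODE release 29 (GRCh38), promoters from RefSeq (GRCh38.p14); for 38 of 40 genes, the first 40 bases after the start were found in a GENCODE transcript of that gene. No protein sequences were used here. The alternatives changed the pseudocount (0.1 and 0.01), the filter (none, or 1 FPKM) and the scaling (median of ratios, quantile, common sum), used array weights or a robust empirical Bayes step, added a block for the replicate number, or left out each library in turn. Python 3.11.15, pandas 2.3.3 and matplotlib 3.10.9 were used for the rest.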

Additional observations from a re-analysis of the deposited data

How the results depend on the processing

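Under all alternatives run, 0 proteasome genes had an adjusted p under 0.05 in limma, and the lowest such p of any was 0.088, with array weights, where 1246 of all 17222 rows passed. Of all rows, 131 passed without EFTUD2 replicate 3. The 4 genes lower at an unadjusted p under 0.05 became 1 with median-of-ratios scaling, 8 with a common sum, 2 with array weights (whose estimation stopped before it converged), 9 with the replicate block and 0 to 14 without 1 library at a time (0 without control replicate 2, 1 without control replicate 1 or 3, 2 without EFTUD2 replicate 1, 14 without EFTUD2 replicate 2); the 0 higher became 2 with median-of-ratios scaling and 1 with quantile normalization. The 16 genes lower without overlap became 10 with median-of-ratios scaling and 16 to 24 without 1 library (24 without control replicate 1 or EFTUD2 replicate 2), and the 2 higher became 4 with median-of-ratios scaling, 1 with quantile normalization and 1 with a common sum. With median-of-ratios scaling and without EFTUD2 replicate 3 together, an alternative chosen after the data were seen, the counts were 2 lower and 2 higher at an unadjusted p under 0.05 and 5 higher without overlap, and the median log2 fold change was -0.02. The cause of these shifts was not tested. Of all 17222 rows, an unadjusted p under 0.05 in either direction was reached by 2270 with a common sum, 3763 with array weights and 2027 with the replicate block. It was reached by 2185 without EFTUD2 replicate 2 and by 1093 without control replicate 2. For these alternatives shares of all rows by direction or by overlap are not given, so the counts of proteasome genes cannot be read against them. Of the 45 genes, 33 kept the sign of their log2 fold change in every alternative listed in the methods. The others turned as follows: with median-of-ratios scaling to 0.02 for PSMA1, 0.05 for PSMA5, 0.06 for PSMA6, 0.11 for PSMB3, 0.02 for PSMC3IP, 0.12 for PSME2 and 0.01 for PSMF1; with quantile normalization to 0.04 for PSMA5 and 0.02 for PSMC3IP; with a common sum to -0.01 for PSMD10; and with array weights to 0.05 for PSMA1, 0.01 for PSMA5, 0.01 for PSMA6, 0.02 for PSMB10, 0.01 for PSMC3IP, 0.11 for PSME2 and 0.25 for PSMG3. Without 1 library at a time, signs also turned, with ranges of -0.16 to 0.01 for PSMA5, -0.21 to 0.05 for PSMA6, -0.36 to 0.12 for PSMB10, -0.21 to 0.09 for PSMB3, -0.26 to 0.03 for PSMB6, -0.42 to 0.08 for PSMC4, -0.04 to 0.14 for PSMD10, -0.17 to 0.2 for PSME2 and -0.46 to 0.05 for PSMG3. The deviations of same-numbered libraries from their group means correlated with r = -0.299, 0.353 and -0.0936 over genes for numbers 1, 2 and 3. For libraries of different numbers r was -0.397 to 0.382. As deviations from means of 3 libraries, these values are not independent and cannot decide whether the numbers pair the libraries. The replicate block changed no call at an adjusted p under 0.05, but without it no row was called either. At an unadjusted p under 0.05 it made 9 genes lower instead of 4.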
